A study of Mus musculus with 4 samples.

Results

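A set of 9 genes known mainly from neurons, Map2, Dcx, Eef1a2, Slitrk5, Cntn2, Ntm, Vsnl1, Tubb3 and Stmn2, was followed in the atrioventricular canal of embryonic mouse hearts with reduced Tbx3 function. They are 9 of the 27670 genes with a probe on the array and of the 19091 that passed a filter on dim probes. The set was drawn up because Map2, Dcx, Eef1a2 and Slitrk5 had lower ratios in the mutant on arrays 1, 3 and 4, so the ratios of all 9 are a description here and carry no test. The scanner files list Map2 and Ntm under the older names Mtap2 and Hnt. The data bear out the name "lower in mutant canal" only in part: 4 of the 9 genes were lower on arrays 1, 3 and 4, as were 23% of all genes, and the other 5 were not when the brightest probe stood for a gene. With the mean over a gene's probes, Ntm and Vsnl1 were lower on these arrays too, which makes 6 of 9. These 6 include the 4 genes chosen for the pattern. The 23% is for the brightest probe, and no share of all genes is given for the mean over probes.

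The atrioventricular canal joins the atria of the embryonic heart to its ventricles, and valve cushions and part of the conduction system arise from it. Each of 4 arrays compared 1 pool of canals from wild type control embryos, labelled with Cy3 (green), with 1 pool from Tbx3 mutant embryos, labelled with Cy5 (red), so 8 pools of 5 hearts entered. Embryos of both groups were at e10.5 on a mixed background of 50% Sv129 and 50% C57Bl6, and the series title calls the mutant hypomorphic, meaning that gene function is reduced and not absent. The labels give neither the structure of the allele nor whether the embryos of a pool were littermates, and the mutant was in the red channel on all 4 arrays, so genotype and any dye preference of single probes cannot be told apart.

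Neurons build long processes from microtubules, and several of the 9 genes encode tubulin or proteins that bind, space or destabilise microtubules. Others encode surface proteins by which axons and synapses adhere, a calcium sensor, and a translation factor used in neurons and mature muscle. Working and conduction muscle cells use some of the same genes. Cntn2 in particular is known as a marker of the specialised conduction cells of the heart, and Tbx3 as a repressor that keeps such cells apart from working muscle.

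Tbx3 itself, the check of the labels, fell to a log2 ratio of -1.35 ± 0.10 (mean ± SD, n = 4; limma adjusted p = 0.0454) and was lower on 4 of 4 arrays. It was the 1 gene of 19091 past the threshold (0.00524%). Array 2 stood apart: over the log2 ratios of 19089 genes (genes are no independent replicates), Pearson's r with the other arrays lay between -0.06 and 0.07, against 0.25 to 0.66 among arrays 1, 3 and 4, and the SD of its ratios was 0.49 against 0.26 to 0.29. Values without array 2 are therefore given for the mean of each of the 9 genes and where the calls of a list change. Markers of heart muscle, endocardium, cushion mesenchyme, epicardium and red cells were well above background in all 8 pools for every gene of these lists that the array held (10, 8, 8, 7 and 6 genes).

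The sequences just upstream of the 4 genes that gave the set its pattern are shown because these genes were lower together on arrays 1, 3 and 4. Each is the 250 bases before the RefSeq start site in build GRCm38.p6, 5′ to 3′ on the strand of the gene, with every CG pair in capitals. They lie at chr1:66175079-66175328 (plus strand) for Map2, chrX:143933220-143933469 (minus) for the first of 2 Dcx start sites, chr2:181157016-181157265 (minus) for Eef1a2 and chr14:111675777-111676026 (plus) for Slitrk5.
Map2: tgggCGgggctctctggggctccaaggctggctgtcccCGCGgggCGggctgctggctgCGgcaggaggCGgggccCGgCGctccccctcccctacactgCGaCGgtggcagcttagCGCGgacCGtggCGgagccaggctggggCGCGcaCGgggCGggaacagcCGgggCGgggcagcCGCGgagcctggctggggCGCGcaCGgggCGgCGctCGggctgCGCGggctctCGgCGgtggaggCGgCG
Dcx: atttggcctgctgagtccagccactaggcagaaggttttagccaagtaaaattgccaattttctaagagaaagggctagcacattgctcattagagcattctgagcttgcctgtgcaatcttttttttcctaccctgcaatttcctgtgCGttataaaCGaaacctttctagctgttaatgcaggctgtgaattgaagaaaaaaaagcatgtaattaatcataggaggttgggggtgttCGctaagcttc
Eef1a2: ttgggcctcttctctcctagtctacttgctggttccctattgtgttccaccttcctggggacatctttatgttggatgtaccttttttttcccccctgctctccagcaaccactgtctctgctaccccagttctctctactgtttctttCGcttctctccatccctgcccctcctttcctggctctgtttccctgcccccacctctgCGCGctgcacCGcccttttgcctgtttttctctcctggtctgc
Slitrk5: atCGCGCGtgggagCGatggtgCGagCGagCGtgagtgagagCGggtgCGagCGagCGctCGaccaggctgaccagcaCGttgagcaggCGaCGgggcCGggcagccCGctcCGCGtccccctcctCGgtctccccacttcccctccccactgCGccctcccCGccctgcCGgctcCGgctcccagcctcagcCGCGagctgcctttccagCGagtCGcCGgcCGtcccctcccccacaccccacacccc
Map2 and Slitrk5 have 34 and 30 CG pairs in these stretches, Dcx and Eef1a2 3 and 4. Over the full table window of 300 bases (250 before and 50 after the start), GC content was 77.7% for Map2, 74.3% for Slitrk5, 55.0% for Eef1a2 and 43.0% for Dcx, against a median of 52.7% over 32851 promoters. Promoters were held for 8 of the 9 genes, with 11 start sites. The letters GGTGTGA, the half-site that T-box factors such as Tbx3 recognise, or TCACACC on the other strand, were in 0 of these 11 windows and in 3.98% of all promoters, which says only that these letters are not in these windows.

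Map2 binds and spaces microtubules in dendrites, and of the 9 genes it was the one lower in every mutant pool than in every control pool. Its levels are log2 channel signals after normalization. They were 8.09, 8.30, 8.21 and 7.92 in control pools 1 to 4 and 7.32, 7.57, 7.44 and 7.34 in mutant pools 1 to 4. The highest mutant pool lay below the lowest control pool, a separation in this direction that 5.11% of all genes had and 1 of the 9. The log2 ratios on arrays 1 to 4 were -0.76, -0.73, -0.78 and -0.58, a mean of -0.71 ± 0.09 (SD, n = 4), or 0.611 of the control level, and of -0.71 ± 0.11 without array 2. Array 2, which the choice of Map2 did not name, read within the range of the other 3. The choice was made with earlier results of these data known, so array 2 is no independent check. Its probe is placed by the files at chr1:66681917-66681976 (build mm7, plus strand). Another 3 probes that the files assign to the gene were not well above background in any pool, so the value rests on 1 probe. In bulk pools such as these, fewer cells of a type and less RNA per cell cannot be told apart. Among related microtubule proteins Map1a was at -0.15 ± 0.08, Map1b at 0.05 ± 0.10, Map4 at -0.14 ± 0.15 and Mapt at 0.06 ± 0.40, and none passed the threshold.

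Dcx, doublecortin, bundles microtubules in migrating young neurons. Its levels were 7.49, 6.69, 7.17 and 7.36 in control pools 1 to 4 and 6.48, 7.32, 6.54 and 6.67 in the mutant pools. Pool 2 was the lowest control and the highest mutant, and the groups overlapped through it alone. Dcx had log2 ratios of -1.01, 0.63, -0.64 and -0.69 on arrays 1 to 4, with a mean of -0.43 ± 0.72 on 4 arrays and of -0.78 ± 0.20 without array 2. The probe (chromosome X, 138520631 to 138520690, mm7) was dim but well above background in all 8 pools, while the other 2 Dcx probes were above it in none. Of its relatives, the doublecortin-like kinase Dclk1 read 0.02, -1.53, -0.53 and -0.14 on arrays 1 to 4, the reverse of Dcx on array 2, and Dclk2 was at 0.04 ± 0.14.

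Tubb3, the class of beta-tubulin typical of neurons, did not share the lower ratio. Its levels were 10.91, 11.04, 11.25 and 11.04 in control pools 1 to 4 and 10.77, 11.01, 11.35 and 11.35 in the mutant pools, and the groups overlapped. The log2 ratio was -0.14, -0.02, 0.10 and 0.31 on arrays 1 to 4, with a mean of 0.06 ± 0.19 and of 0.09 ± 0.23 without array 2. This probe (chromosome 8, 122062871 to 122062930, mm7) was printed at 10 spots on each array, and the SD over those spots was 0.02 on arrays 1 to 3 and 0.03 on array 4. Among the other beta-tubulins Tubb2b had 1.83 and 2.03 on arrays 3 and 4 but 0.29 and -0.33 on arrays 1 and 2, and Tubb2a was at 0.37 ± 0.22.

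Stmn2, a stathmin that destabilises microtubules in growth cones, had its lowest ratio on array 2, which the choice did not name. Its levels were 7.30, 8.14, 7.11 and 7.15 in control pools 1 to 4 and 6.85, 7.09, 6.96 and 7.26 in the mutant pools. Control pool 2 stood above the other 7 pools, and the groups overlapped. The log2 ratios on arrays 1 to 4 were -0.45, -1.04, -0.15 and 0.11, with a mean of -0.38 ± 0.50 and of -0.16 ± 0.28 without array 2. It was read by the probe at chr3:8567696-8567755 (mm7), and the other Stmn2 probe was not well above background in any pool. Of the other stathmins Stmn1 was at 0.33 ± 0.23, Stmn3 at -0.12 ± 0.06 and Stmn4 at 0.30 ± 0.43.

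**Figure D1:**
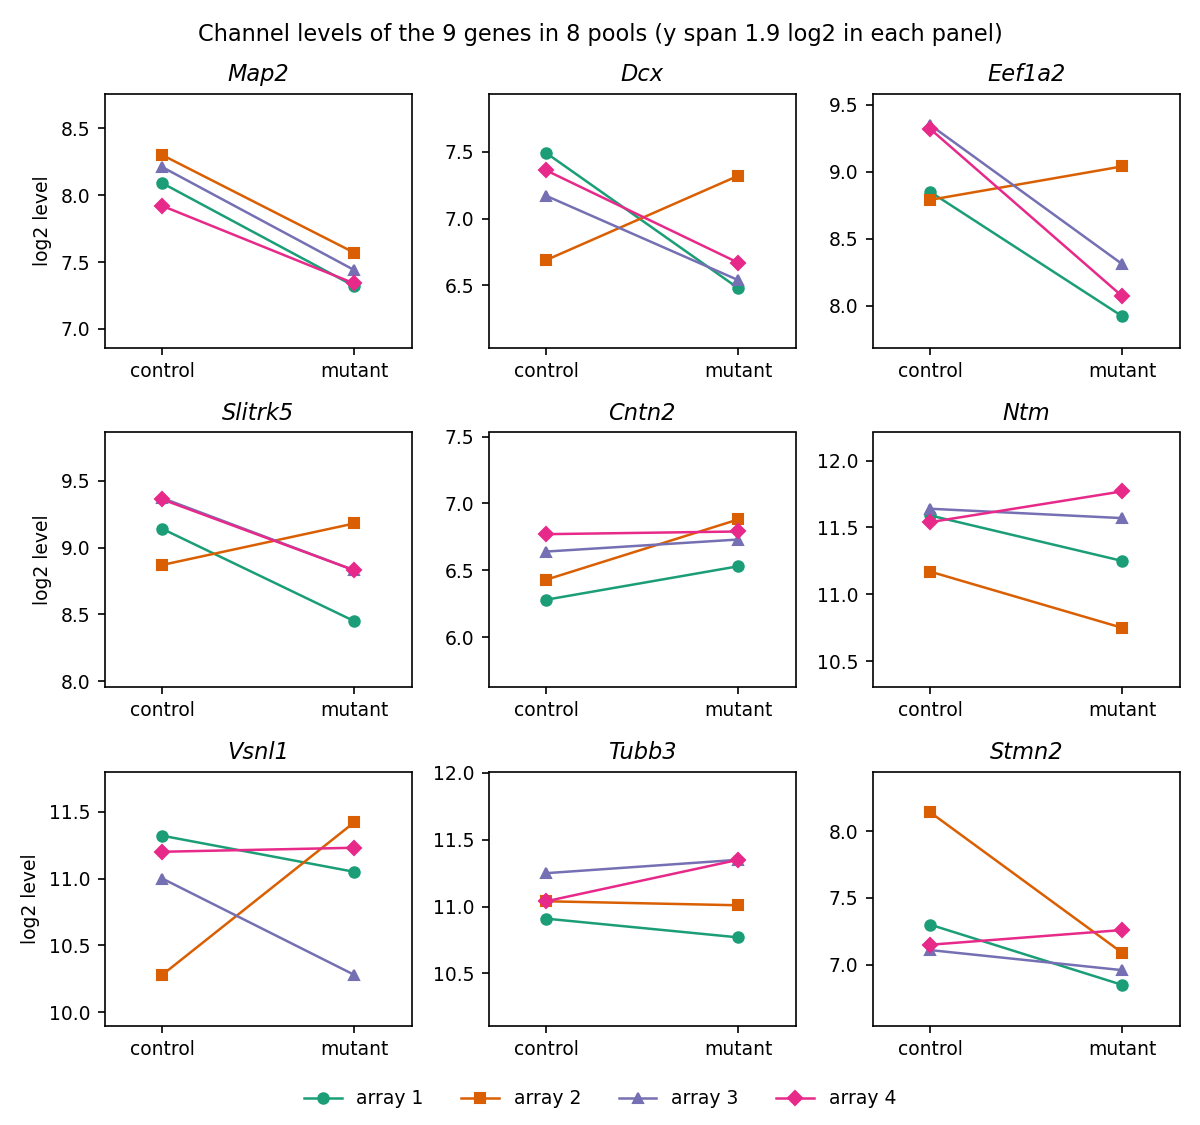
Log2 channel level (y axis) of each of the 9 genes in the control and mutant pools, with the 2 pools of an array joined by a line. All 4 lines of Map2 slope down without overlap of the groups, while in Dcx, Eef1a2 and Slitrk5 the array 2 line rises and the other 3 drop, and in Vsnl1 it rises most.

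Slitrk5 is a leucine-rich repeat protein of the neuronal surface that organises synapses. Its levels were 9.14, 8.87, 9.37 and 9.36 in control pools 1 to 4 and 8.45, 9.18, 8.83 and 8.83 in the mutant pools. As with Dcx, pool 2 was both the lowest control and the highest mutant. Slitrk5 had log2 ratios of -0.69, 0.31, -0.53 and -0.53 on arrays 1 to 4, with a mean of -0.36 ± 0.45 and of -0.58 ± 0.09 without array 2. The gene has 1 probe (chromosome 14, 106085019 to 106085078, mm7). Of the other family members Slitrk4 was at -0.08 ± 0.15 and Slitrk6 at 0.04 ± 0.52, and Slitrk1, Slitrk2 and Slitrk3 were not well above background in any pool.

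Cntn2, a contactin on axons and conduction cells, was the 1 gene of the 9 with a positive ratio on all 4 arrays. With median centring in place of loess it was lower on 2 arrays. No share of all genes higher on all 4 arrays is given. Its levels were 6.28, 6.43, 6.64 and 6.77 in control pools 1 to 4 and 6.53, 6.88, 6.73 and 6.79 in the mutant pools, so the groups overlapped. Cntn2 had log2 ratios of 0.25, 0.45, 0.09 and 0.01 on arrays 1 to 4, with a mean of 0.20 ± 0.19 and of 0.12 ± 0.12 without array 2. The probe (chromosome 1, 132413063 to 132413122, mm7) was dim and well above background in 3 control and 4 mutant pools, and the other 2 probes were above it in none. Of its relatives Cntn1 was at -0.21 ± 0.36 and Cntn4 at 0.00 ± 0.03, and Cntn3, Cntn5 and Cntn6 were not well above background in any pool.

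Ntm, neurotrimin, is an adhesion molecule anchored to the outer membrane of neurons, and its 3 measured probes disagreed. The brightest (chromosome 9, 28878147 to 28878206, mm7) had levels of 11.59, 11.17, 11.64 and 11.54 in control pools 1 to 4 and 11.25, 10.75, 11.57 and 11.77 in the mutant pools. Its log2 ratios were -0.34, -0.43, -0.07 and 0.23, with a mean of -0.15 ± 0.29 and of -0.06 ± 0.28 without array 2, and the groups overlapped. The second probe, from 28878934 to 28878993, read -0.60, 0.24, -0.47 and -0.37 on arrays 1 to 4, and the third, from 28905036 to 28905095, read -0.49, 0.40, -0.45 and -0.42. Both of these dimmer probes were lower on arrays 1, 3 and 4 and higher on array 2, like Dcx, Eef1a2 and Slitrk5, while the brightest was not. Which transcripts each probe reads was not tested. In the same family Negr1 was at -0.04 ± 0.13 and Lsamp at -0.02 ± 0.10, and Opcml was not well above background in any pool.

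Vsnl1 encodes visinin-like protein, a calcium sensor of neurons that the heart also uses. Its levels were 11.32, 10.28, 11.00 and 11.20 in control pools 1 to 4 and 11.05, 11.42, 10.28 and 11.23 in the mutant pools, which overlap. The log2 ratios on arrays 1 to 4 were -0.28, 1.14, -0.72 and 0.03, a mean of 0.04 ± 0.79. Its second probe gave -0.39, 1.29, -0.99 and -0.13, so both probes (chromosome 12, 11390211 to 11390270 and 11389568 to 11389627, mm7) put array 2 highest and array 3 lowest. Without array 2 the mean of the brighter probe was -0.32 ± 0.38. Among related sensors Hpcal1 was at 0.26 ± 0.05 (limma adjusted p = 0.173; higher on 4 of 4 arrays), Ncald at -0.22 ± 0.09 and Ncs1 at -0.18 ± 0.36, none past the threshold.

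Eef1a2 encodes the form of translation elongation factor 1A that neurons and mature muscle use in place of the widespread Eef1a1. It was read by 1 probe (chromosome 2, 181650634 to 181650693, minus strand, mm7), shown because the value of the gene rests on it alone. It is given as deposited, 5′ to 3′, and has 1 reading frame without a stop.
Eef1a2 probe: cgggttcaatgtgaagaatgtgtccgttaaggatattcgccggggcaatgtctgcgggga
The levels were 8.85, 8.79, 9.35 and 9.32 in control pools 1 to 4 and 7.92, 9.04, 8.31 and 8.07 in the mutant pools. Mutant pool 2 was the one that lay among the controls, and control pool 2 was the lowest of its group. The log2 ratios on arrays 1 to 4 were -0.93, 0.25, -1.04 and -1.25, a mean of -0.74 ± 0.67, or 0.597 of the control level, and of -1.07 ± 0.16 without array 2. Eef1a1 had ratios of 0.51, 0.43, 0.88 and 0.73, a mean of 0.64 ± 0.20 (limma adjusted p = 0.132; higher on 4 of 4 arrays). Its probe was among the brightest (mean log2 intensity 17.12), and with the running median over intensity removed from each array it stood at 0.09 (limma adjusted p = 0.805). Whether the Eef1a2 probe also captures Eef1a1 was not tested.

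Across the set, array 2, which the choice did not name, gave a mixed picture. Earlier results of these data were known when the set was chosen, so array 2 is no independent check of it. Of the 4 genes chosen on arrays 1, 3 and 4, 1 (Map2) was also lower on array 2 and 3 were higher there. Dcx, Eef1a2, Slitrk5 and Vsnl1, 4 of the 9, had control pool 2 lowest among the controls and mutant pool 2 highest among the mutants, as did 10.1% of all genes. The median of the 9 ratios was -0.45, 0.25, -0.53 and 0.01 on arrays 1 to 4, while that of all genes lay between -0.02 and 0 on each. The number of the 9 with a negative ratio was 8, 4, 7 and 4. The median of the 9 means was -0.36 against 0 for all genes and -0.32 against 0.01 without array 2. A lower median is what the choice of the 4 genes gives. The 5 genes not named in the choice had means on both sides of 0. These were 0.20 for Cntn2, 0.06 for Tubb3, 0.04 for Vsnl1, -0.15 for Ntm and -0.38 for Stmn2. Those 4 were lower by more than 0.5 on each of arrays 1, 3 and 4, as were 0.272% of all genes. Since they were chosen for lower ratios on these arrays, this share does not measure how rare the pattern is.

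**Figure D2:**
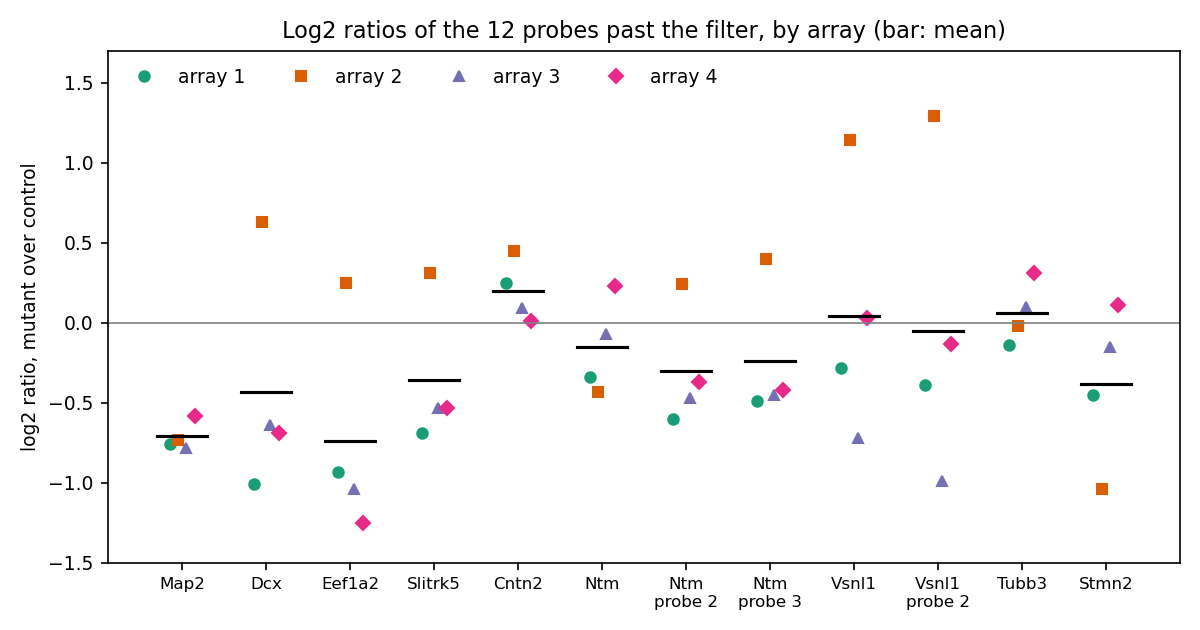
Log2 ratio of mutant over control (y axis) for the 12 of 22 probes that passed the filter, with a symbol for each array and a bar at the mean. Map2 is below 0 on all 4 arrays, Dcx, Eef1a2, Slitrk5, both dimmer Ntm probes and the second Vsnl1 probe are above 0 on array 2 only, and Cntn2 is above 0 on all 4.

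The offset of 50 added in background correction pulls the ratios of dim probes towards 0. In the log ratios that the scanner software computed, Dcx read -2.07, 1.24, -1.64 and -1.57 on arrays 1 to 4 and Map2 -1.18, -0.87, -1.21 and -1.0. Eef1a2 read -1.24, 0.37, -1.30 and -1.56 and Slitrk5 -0.83, 0.49, -0.67 and -0.64. The signs were those of the main values on every array for these 4. Cntn2 read 0.64, 1.16, 0.40 and 0.32, a mean of 0.63 ± 0.38 against 0.20 ± 0.19.

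**Figure D3:**
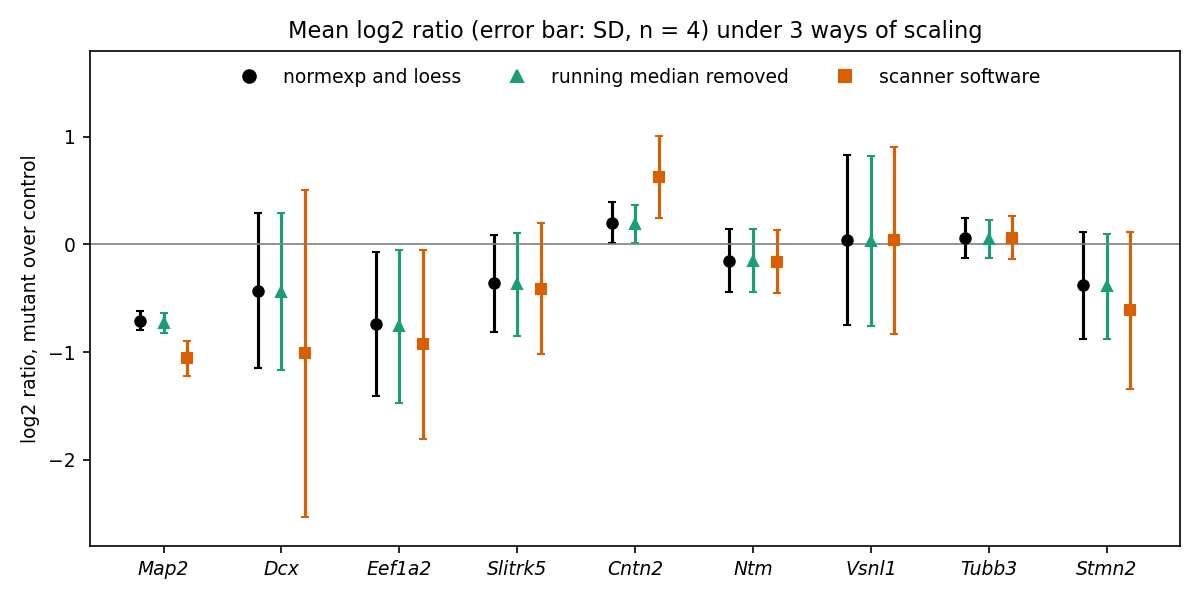
Mean log2 ratio with SD over 4 arrays (y axis) of the 9 genes under normexp with loess, with the running median over intensity removed, and in the scanner software's own ratios. The dim probes of Map2, Dcx, Cntn2 and Stmn2 lie farther from 0 in the scanner software's values, and no gene changes sign among these 3 settings.

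By their medians, other neuronal transcripts centred near 0. Counts of genes lower on arrays 1, 3 and 4 are given below for all lists. Of 27 measured genes of the neuronal cytoskeleton and growth cone, 0 passed the threshold in either direction, 14 had a positive and 13 a negative mean, and the list's median was 0.00. By the limma fit, 3 had an unadjusted p under 0.05 on the higher side and 2 on the lower, against 7.1% and 7.45% of all genes. The growth cone protein gene Gap43 was at 0.39 ± 0.23 (adjusted p = 0.209; higher on 4 of 4 arrays), Tubb2a at 0.37 ± 0.22 and Stmn1 at 0.33 ± 0.23. The last of these are very bright probes, at 0.18 and -0.03 with the running median removed. In a list with no gene past the threshold, one sign on all 4 arrays was a condition for naming a gene. For such genes here and below it is therefore no result, and 12.6% of all genes were lower on all 4 arrays. Without array 2, 1 member passed, Marcksl1 at -0.56 (limma adjusted p = 0.0429), which regulates actin in growth cones. In that setting 0.33% of all genes passed on that side. On 4 arrays Marcksl1 was at -0.37 (limma adjusted p = 0.333) and read 0.17 on array 2.

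Among 24 measured genes of neuronal RNA binding and vesicle release 0 passed, with 2 at an unadjusted p under 0.05 (limma), both lower, against 7.45% of all genes, and a median of -0.02. The vesicle fusion protein gene Vamp2 was at -0.41 ± 0.09 (limma adjusted p = 0.134). Cplx2, a complexin that clamps fusion, was at -0.35 ± 0.13 (limma adjusted p = 0.164). Rbfox3, a splicing factor of mature neurons, was at -0.15 ± 0.12. All were lower on 4 of 4 arrays, which their naming required and 12.6% of all genes were. Of 26 such genes on the array 22 were well above background in all 8 pools, and their mean level lay between 8.16 and 8.21 in control pools and between 8.09 and 8.20 in mutant pools.

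Markers of autonomic neurons, whose precursors reach the heart from the neural crest, were measured for 15 of 22 genes. Ret, a receptor gene of these neurons, was not well above background in any pool, nor were Slc18a3, Insm1, Chrna3 and Chrnb4, whereas Th, which encodes the enzyme that starts catecholamine synthesis, was in all 8. The list had a median of -0.04, 0 members past the threshold and 1, Gata3, lower at an unadjusted p under 0.05 (limma), against 7.45% of all genes. Gata3 was at -0.73 ± 0.61 (limma adjusted p = 0.267; lower on 4 of 4 arrays), with -1.58 on array 2 and a mean of -0.45 without it. The vesicular monoamine transporter gene Slc18a2 was at 0.27 ± 0.28, and at 0.17 without array 2. The mean level of the list ranged from 7.78 to 8.14 in control pools and from 7.76 to 7.84 in mutant pools. Slc6a2, a gene of this list, read -4.13 on array 2 against -0.02, 0.38 and -0.09 on arrays 1, 3 and 4. The share of this 1 gene in these ranges was not tested. The part of autonomic cells in the values of the 9 genes was not tested.

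Most neural crest and glial genes had a negative mean. Of 15 measured, 12 had a negative mean and 3 a positive one, where 49.7% of all genes had a negative mean, and the median was -0.14. On 4 arrays 0 passed, with 4 at an unadjusted p under 0.05 (limma), all lower, against 7.45% of all genes on that side. S100b, a calcium-binding protein of glia, was at -0.57 ± 0.16 (adjusted p = 0.132), the neuregulin receptor gene Erbb3 at -0.34 ± 0.10 and the crest transcription factor gene Foxd3 at -0.24 ± 0.05, each lower on 4 of 4 arrays. Without array 2 S100b passed, at -0.65 (adjusted p = 0.0388), as did 0.33% of all genes on that side. The mean level of the list ranged from 8.77 to 9.0 in control pools and from 8.69 to 8.81 in mutant pools, ranges that overlap, and the part of such cells in the values of Map2 was not tested.

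Of 24 neuronal adhesion and axon guidance genes 0 passed, with 2 higher and 2 lower at an unadjusted p under 0.05 (limma), against 7.1% and 7.45% of all genes, and a median of -0.09. The teneurin gene Tenm3 was at -0.27 ± 0.05 (adjusted p = 0.171), the netrin receptor gene Unc5b at 0.52 ± 0.31 (adjusted p = 0.201) and Lrrn3 at 0.28 ± 0.17. The paralogues of the 9 genes had a median of 0.04 over 25 measured members, with 0 past the threshold and 4 higher and 1 lower at an unadjusted p under 0.05 (limma), against 7.1% and 7.45% of all genes. The 4 higher were Eef1a1, Hpcal1, Tubb2a and Stmn1, which stood at 0.09, 0.27, 0.18 and -0.03 with the running median removed. Without array 2, Eef1a1 passed at 0.71 (adjusted p = 0.0498), on the side on which 0.681% of all genes passed in that setting.

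Genes of the canal and conduction system were measured for all 27 listed. Tbx3 was the 1 past the threshold, 7 were lower and 1 higher at an unadjusted p under 0.05 (limma), against 7.45% and 7.1% of all genes, and the median was -0.07, or -0.15 without array 2. Without array 2, 4 passed, all lower, as did 0.33% of all genes. They were Tbx3 at -1.33, the T-type calcium channel gene Cacna1g at -0.94, Cpne5 at -0.55 and the homeobox gene Msx2 at -0.58. On 4 arrays Cacna1g was at -1.04 (limma adjusted p = 0.0949) and Cpne5 at -0.45 (limma adjusted p = 0.183), both lower on each. Msx2 was at -0.38 on 4 arrays (limma adjusted p = 0.357) and read 0.21 on array 2. The list's medians were -0.19, 0.15, -0.20 and -0.17 on arrays 1 to 4, so by the median array 2 ran against the others. The 7 genes lower at an unadjusted p under 0.05 were negative on array 2 too, a value that enters that p. Of the 27 canal genes 18 were lower on arrays 1, 3 and 4, against 23% of all genes. The counts were 12 of 24 for adhesion, 8 of 15 for crest, 5 of 15 for autonomic and 6 of 24 for vesicle genes. They were 9 of 27 for cytoskeleton genes and 4 of 25 for paralogues.

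**Figure D4:**
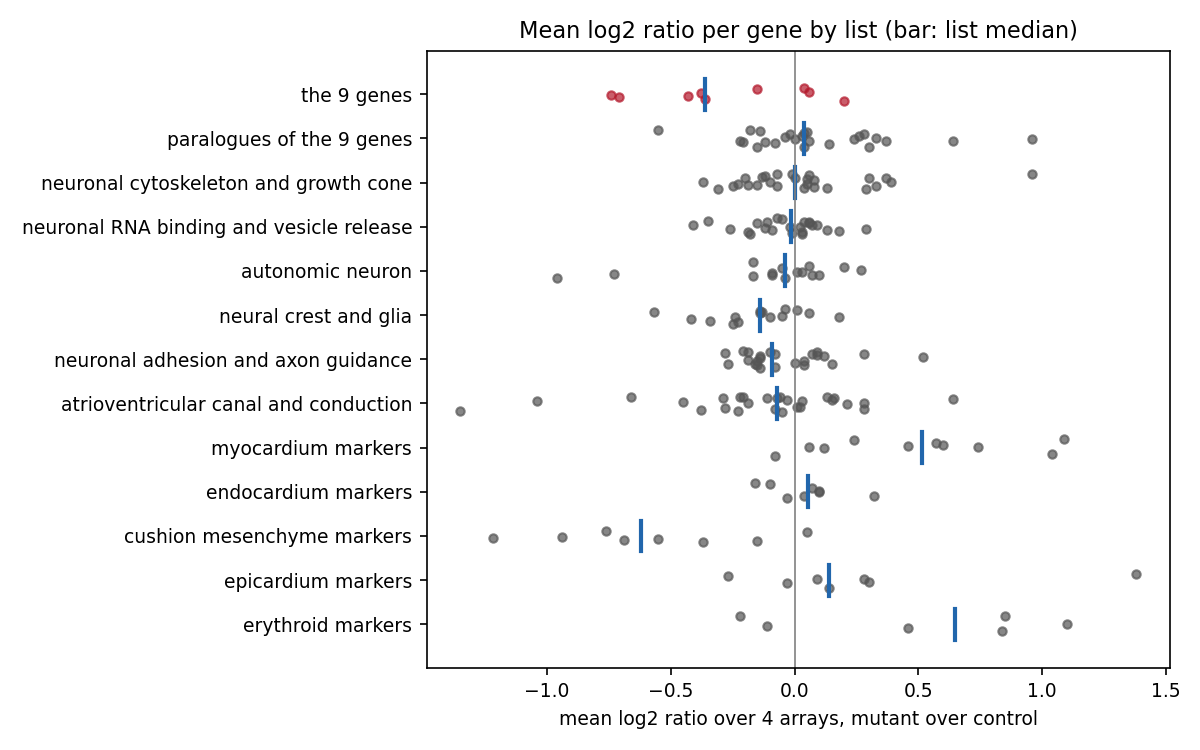
Mean log2 ratio over 4 arrays (x axis) of each measured gene, by list, with a bar at the list median. The neuronal and neural crest lists centre between -0.14 and 0.04, the 9 genes at -0.36, cushion mesenchyme markers at -0.62 and myocardium markers at 0.52. The 9 include the 4 genes chosen for lower ratios, so their median cannot be read against the lists.

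Of the other cell types of the canal, markers of muscle, cushion and red cells lay farther from 0 than the neuronal lists in the main values. Myocardium markers had a median of 0.52 over 10 genes, and of 0.34 without array 2, led by Myh7 at 1.09 ± 0.22, Myl4 at 0.74 ± 0.16 and Myl7 at 1.04 ± 0.29, all very bright probes. With the running median over intensity removed these 3 stood at 0.49, 0.20 and 0.47. The rest of the list then lay nearer to 0. Tnnt2 stood at 0.07, Actc1 at 0.25, Myh6 at 0.20, Tnni1 at 0.11, Ttn at 0.16, Tnni3 at -0.08 and Nkx2-5 at -0.03. The mean level of the list was 15.90 to 16.23 in control and 16.32 to 16.64 in mutant pools. Cushion mesenchyme markers had a median of -0.62 over 8 genes, and of -0.44 without array 2. Sfrp2 was at -0.76 ± 0.21, Prrx1 at -0.55 ± 0.24 and Postn at -0.94 ± 0.60. The mean levels were 12.59 to 13.58 in control and 12.22 to 12.46 in mutant pools. On array 2 Postn read -1.82, Col1a1 -3.58 and Col3a1 -2.37, against means without it of -0.64, -0.43 and -0.13. These genes weigh on the mean levels, while the list's medians were -0.29, -0.56, -0.53 and -0.39 on arrays 1 to 4. Endocardium markers had a median of 0.05, or -0.01 without array 2, with mean levels of 11.63 to 11.88 and 11.75 to 11.82, and epicardium markers one of 0.14, or 0.25 without array 2, with 11.60 to 11.85 and 11.80 to 12.29. Erythroid markers had a median of 0.65, with 14.30 to 15.52 and 15.12 to 15.79, but their medians on arrays 1 to 4 were 1.81, 0.78, -0.23 and -0.03, so arrays 1 and 2 carried the value. Of their bright probes Hbb-bh1 stood at 1.10 and Hbb-y at 0.84, and at 0.40 and 0.17 with the running median removed. On 4 arrays 0 of these markers passed, with 9 higher and 4 lower at an unadjusted p under 0.05 over the lists of myocardium (6 higher), endocardium, epicardium and erythroid cells (1 higher each) and cushion mesenchyme (4 lower) by the limma fit, against 7.1% and 7.45% of all genes. Without array 2, Myh7, Myl4, Myl7 and Krt19 passed on the higher side and Sfrp2 and Postn on the lower, as did 0.681% and 0.33% of all genes. Of the 8 cushion mesenchyme genes 6 were lower on arrays 1, 3 and 4, against 23% of all genes. The counts were 1 of 10 for myocardium, 1 of 8 for endocardium, 1 of 7 for epicardium and 0 of 6 for erythroid genes. The part of cell makeup in the lower values of Map2, Dcx, Eef1a2 and Slitrk5 was not tested.

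Genes whose ratios over the 4 arrays lay nearest to the mean profile of Map2, Dcx, Eef1a2 and Slitrk5 (-0.85, 0.11, -0.75 and -0.76) were found by Euclidean distance on the log2 scale. The nearest 6 genes outside the set were Oprl1 (distance 0.153), Tmem182 (0.173), 6330403K07Rik (0.34), Acvr1c (0.356), Glo1 (0.36) and Oprk1 (0.372). Oprl1, the nociceptin receptor gene, read -0.77, 0.14, -0.64 and -0.68 on arrays 1 to 4, and Oprk1, the kappa opioid receptor gene, -0.96, 0.35, -0.98 and -0.89. Acvr1c, an activin receptor gene, read -0.87, 0.14, -1.04 and -0.56. Tmem182 read -0.73, 0.09, -0.82 and -0.67, 6330403K07Rik -0.61, 0.02, -0.97 and -0.79, and Glo1 -0.88, -0.05, -0.55 and -0.51. The 4 genes themselves lay at 0.404 (Slitrk5), 0.555 (Dcx), 0.588 (Eef1a2) and 0.865 (Map2), which puts them at ranks 9, 45, 56 and 469 among all genes. Their own values made the mean, so these ranks are a description.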

How the data were processed

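The files are scanner tables of 4 two-colour arrays of 60-base probes, made with Agilent Feature Extraction 9.5.1 per the submitters' processing notes. The deposited intensity values are mean spot signals with the median local background, before subtraction, and processed signals, per the file headers. The log10 ratio in the deposited tables divides the red by the green processed signal; the series table matched it to within 5e-07, apart from 3 empty values. Flags are those of the scanner software.

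Background was corrected with normexp (offset 50) and each array normalized by loess, giving control spots a weight of 0 (limma 3.58.1, R 4.3.3); channel levels were then scaled by Aquantile. Non-uniform spots were left out. A probe was kept where 3 or more arrays had it well above background in either channel (28794 of 41174 probes), and the brightest probe stood for a gene. Of all probes 22951 were named by accession, 6659 by symbol and 3109 by synonym through the RefSeq table of GRCm38.p6, and 8455 kept their name. Log2 ratios were tested against 0 with lmFit and eBayes, 2-sided, Benjamini-Hochberg adjusted over 19091 genes, threshold 0.05. The arrays share 1 slide and 1 scan, and their number limits the precision. The labels call the samples biological replicates.

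The members and gene lists were chosen with earlier results of these data known. Named were the 9 genes, relatives of a described gene, Tbx3 and the 6 nearest profiles. Of each list, up to 4 genes past the threshold were named. In a list with none, up to 3 with the smallest p and one sign on all arrays were. Marcksl1, Cacna1g, Cpne5, Msx2 and the autonomic genes cited for detection were named after their values were seen. So were Hbb-y, Slc6a2, Col1a1 and Col3a1. Alternatives were other background corrections and normalizations, filters, probe rules and leaving out each array. Some genes of the lists are not reported here by name.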

Additional observations from a re-analysis of the deposited data

Results flagged for a closer look

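Of 16 genes checked, the 9 together with Tbx3 and the 6 nearest profiles, 4 had 1 array far from the other 3 by Dixon's test at its 95% critical value, a test that chance meets in about 1 of 20 groups. In all 4 it was array 2. Slitrk5 read 0.31 there, Oprk1 0.35, Oprl1 0.14 and Tmem182 0.09, each against negative ratios on arrays 1, 3 and 4. Slitrk5 was chosen for its ratios on arrays 1, 3 and 4, and the other 3 genes by likeness to a profile that has this form, so all 4 flags rest on values used in the choice and cannot be read against the chance rate.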

How the results depend on the processing

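The median of the 9 genes stayed between -0.41 and -0.14 in the 11 alternatives, from -0.32 to -0.23 with 1 array left out. In the main values this median is that of Slitrk5, a gene chosen for lower ratios. Its steadiness therefore restates the choice and is no support for a lower set. The means of Dcx, Eef1a2, Slitrk5, Map2, Stmn2 and Cntn2 kept their sign throughout (Cntn2 in 10 alternatives, since 1 filter left it out). Those of Ntm and Tubb3 changed sign in 1 alternative each and that of Vsnl1 in 2. The count of all genes past the threshold was 1, against 0 without background correction, 3 (all higher) in the scanner software's ratios, 7772 (7202 higher, 570 lower) with median centring in place of loess and 0 with the mean over a gene's probes; the cause was not tested. Leaving out 1 array gave 0 to 193, with 193 (130 higher, 63 lower) without array 2 and 0 without array 1, 3 or 4 (2182, 1497 and 1534 genes at an unadjusted p under 0.05). With median centring, 13 paralogues, 9 cytoskeleton, 4 vesicle, 3 autonomic, 4 crest and 7 adhesion genes passed, against 0 of each. Leaving out 1 array gave 0 to 1 for paralogues, cytoskeleton and crest, the 1 always without array 2. For canal genes the count of 1 became 9 with median centring, 0 without background correction, in the scanner software's ratios and with probe means, and 0 to 4 with 1 array left out. No paired analysis was possible because the 4 ratios form a single group with no other to pair it with; the test of the ratios against 0 is itself paired by array. Ratios of dim probes such as those of Dcx and Cntn2 are limited by their small signal over background.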
